A study of Mus musculus with 7 samples.

Results

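The intervals described here are the 19353 places where erythroid Kruppel-like factor (EKLF, encoded by Klf1) was called in fetal liver erythroblasts, all of the erythroblast list, of 26711 intervals in the 2 deposited peak lists. Every mouse carried Klf1 with a hemagglutinin tag, the controls included, and livers were taken at stage E13.5. Erythroblasts were sorted as Ter119+CD71+ cells and progenitors as Ter119-CD71- and Ter119-CD71+ cells, in at least 3 independent sorts each, and used as primary cells. Chromatin was precipitated with a monoclonal antibody to the tag, and sheared chromatin that had seen no antibody (input) was the background for peak calling. The 7 samples are 1 precipitated and 1 input library per stage, 1 progenitor RNA library and 2 erythroblast RNA libraries. Chromatin from mice without the tag was not analysed here. The deposited erythroblast list is 1 pooled list, so the values below have no replicate error, no test was run between conditions, and the depth behind a peak is unknown.

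EKLF is a zinc-finger transcription factor of red cell precursors that binds CACCC-type sequences. It is known for activating the adult beta-globin gene, and for its part in the expression of genes of heme synthesis, the red cell membrane and cell cycle control. Mice that lack it die of anemia before birth. Erythroblasts at the sorted stage still divide while they fill with hemoglobin.

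RNA of the same cells was given as a coverage signal per coding exon, for 5214 gene items with at least 1 exon at 0.8 or more in both stages. A gene's level here is that signal summed over its listed exons; it is not divided by length, so levels of different genes are not on a per-length scale. Of 12 erythroblast markers 8 were listed, with levels of 4043 for the joined alpha-globin genes Hba-a1 and Hba-a2, 1686 for the item that joins Hbb-b2 with Hbb-bt, 2845 for Gata1, 202 for Nfe2, 148 for Tfrc, 145 for Klf1 itself and 70.5 for Epor. Hbb-b1, Alas2 and Slc4a1 are among those not listed. No marker of hepatocytes, macrophages, granulocytes and mast cells, lymphoid cells or endothelial cells was listed, and of the megakaryocyte markers 1 was, Gp1ba at 31.6. The marker check could see only genes that passed the minimum in both stages.

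Promoter sequences of 5 bound genes show the letters against which EKLF peaks can be read. A first coding exon could be located for forward-strand genes only, and 472 of the 644 listed ones (73.3%, Wilson 95% interval 69.7 to 76.6) had a peak within 1 kb. Fth1 encodes the ferritin heavy chain, which stores iron. Sod1 encodes a superoxide dismutase and Gpx1 a glutathione peroxidase, enzymes that remove reactive oxygen. E2f2 encodes a cell cycle transcription factor and Hbb-bt an adult beta-globin chain. The first 4 follow the rule used for naming genes, and Hbb-bt was chosen after its values were seen. Capitals mark matches to CCNCNCCC, a CACCC-type pattern in which N is any base, on either strand, with overlapping matches joined. The rule took only genes whose window held a match, so these examples do not show how often bound genes hold the pattern. The windows run from 250 bases before to 50 after a start site, 5′ to 3′, from RefSeq on GRCm38.p6.
Fth1: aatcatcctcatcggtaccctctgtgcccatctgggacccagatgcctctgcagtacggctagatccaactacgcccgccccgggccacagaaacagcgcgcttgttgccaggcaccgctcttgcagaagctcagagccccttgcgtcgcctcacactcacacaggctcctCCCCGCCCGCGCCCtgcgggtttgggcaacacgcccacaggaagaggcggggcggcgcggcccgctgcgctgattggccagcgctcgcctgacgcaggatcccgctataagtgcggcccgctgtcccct
Sod1: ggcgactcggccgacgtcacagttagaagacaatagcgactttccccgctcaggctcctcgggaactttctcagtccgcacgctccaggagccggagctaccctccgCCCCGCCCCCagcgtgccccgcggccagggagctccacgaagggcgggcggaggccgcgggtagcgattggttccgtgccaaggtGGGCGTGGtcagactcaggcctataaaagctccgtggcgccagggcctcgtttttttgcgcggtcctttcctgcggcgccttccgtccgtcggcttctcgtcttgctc
Gpx1: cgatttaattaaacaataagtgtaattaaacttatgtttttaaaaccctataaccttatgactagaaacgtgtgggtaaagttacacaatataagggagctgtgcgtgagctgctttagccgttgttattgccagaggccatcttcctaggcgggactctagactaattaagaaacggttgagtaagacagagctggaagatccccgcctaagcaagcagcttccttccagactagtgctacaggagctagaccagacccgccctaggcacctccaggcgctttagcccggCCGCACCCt
E2f2: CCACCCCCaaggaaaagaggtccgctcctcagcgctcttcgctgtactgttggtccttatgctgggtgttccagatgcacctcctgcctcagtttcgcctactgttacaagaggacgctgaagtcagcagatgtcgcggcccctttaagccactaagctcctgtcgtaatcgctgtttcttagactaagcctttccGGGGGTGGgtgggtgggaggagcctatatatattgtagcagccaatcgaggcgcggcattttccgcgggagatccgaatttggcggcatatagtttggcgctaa
Hbb-bt: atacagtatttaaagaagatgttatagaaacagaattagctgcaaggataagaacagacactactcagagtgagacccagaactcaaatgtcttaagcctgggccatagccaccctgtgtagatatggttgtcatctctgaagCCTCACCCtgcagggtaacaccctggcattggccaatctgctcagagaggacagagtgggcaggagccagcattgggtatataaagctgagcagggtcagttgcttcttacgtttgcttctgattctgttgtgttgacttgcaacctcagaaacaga

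Matches in these windows differed in number and place. Fth1 held 2 matches, 79 and 73 bases before the start, and Sod1 held 3. The E2f2 window held 1 at its far end and 1 at 54 bases before the start, Gpx1 only 1, at 41 bases after it, and Hbb-bt only 1, at 107 bases before it. For Fth1 and E2f2 the table gives 2 windows each, of which 1 is shown. In mm9, the build of the peaks, the Fth1 peak lies at chr19:10056168-10058454 with an enrichment of 23.98 over input, the Sod1 peak at chr16:90220213-90222085 with 28.94, and the Gpx1 peak at chr9:108240474-108242702 with 34.72. Enrichment is the authors' fold over input and ranks peaks within this list. The E2f2 peak at the first coding exon, chr4:135727646-135729817, had an enrichment of 9.92, and the strongest of its 3 peaks, chr4:135733009-135735104, had 23.15. The Hbb-bt peak, chr7:110956855-110963335, spanned 6481 bp with an enrichment of 20.67. The peaks themselves were not read as sequence, because no mm9 genome was used here.

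Across promoters, the CACCC-type pattern was about as frequent in genes with a peak at the first coding exon as in listed genes at large. Where the promoter windows lie relative to the peaks was not determined, since they are of another build. Listed genes are no background without peaks, since 73.3% of the first coding exons that could be located had one. Comparisons with them therefore cannot tell whether a pattern goes with peaks. Of 430 promoter windows of the genes with a peak at the first coding exon, 303 (70.5%, 66.0 to 74.6) held CCNCNCCC, against 68.5% of all 5434 windows of listed genes and 49.5% of all 32851 windows in the table. Base composition moved with these shares: median GC was 62.7% for genes with such a peak, 61.7% in listed genes and 52.7% in the table. Within GC classes the shares were 41.7% and 40.2% at a GC of 55% or under, 69.1% and 69.1% up to 65%, and 86.0% and 87.3% above it, each given first for genes with a peak and then for all listed genes, which include them. With these peaks in 3 classes by strength, the pattern was in 69.4% of windows of the strongest class and in 67.4% of the weakest, with overlapping intervals. The exact letters CCACACCC were in 3.26% of windows of genes with such a peak and 3.56% of all windows. For AGATAA, which factors of the Gata family bind, the shares were 5.35% and 11.2%. In windows of all listed genes CCACACCC and AGATAA were in 3.53% and 6.04%, close to the values for genes with such a peak. Matching by symbol found 82.4% of the 472 genes. Of the 172 genes without a peak at the first coding exon only 77.3% matched, under the 80% minimum, so the comparison with them is void. CCNCNCCC was in 57.0% (49.0 to 64.6) of their windows, at a median GC of 57.0%, and these windows were not split by GC class.

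Erythroblast peaks were of even width and widely spaced. The median width was 1760 bp, with quartiles of 1430 and 2200 bp, and 89.2% of peaks were between 1 and 3 kb. Together they covered 37.6 Mb. The median gap to the next peak was 74.4 kb, with quartiles of 25.8 and 172 kb, and no 2 neighbours overlapped. Close neighbours were a minority: 9.15% of gaps were under 5 kb and 13.4% under 10 kb, down to 2 bp. Chromatin fragments of about 200 bp were selected, so a typical peak was several fragments wide.

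**Figure D1:**
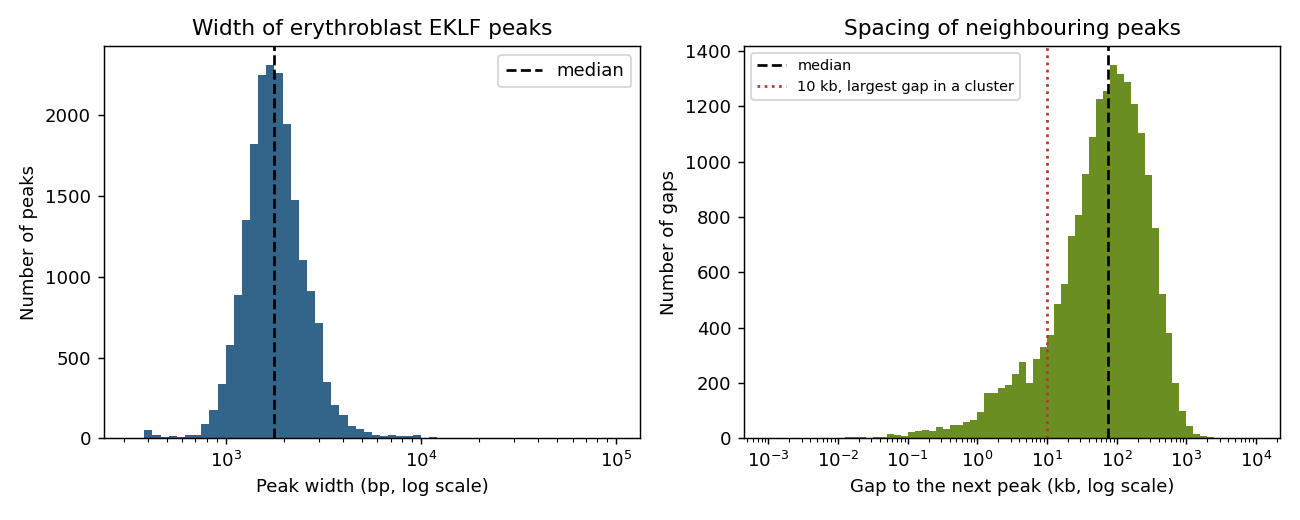
Number of erythroblast EKLF peaks by width in bp (left) and number of gaps by distance to the next peak in kb (right), both on log scales, with dashed lines at the medians of 1760 bp and 74.4 kb and a dotted line at 10 kb. Widths form 1 main mode with a small separate group at the short end, and most gaps lie beyond the dotted line.

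The width distribution had a small separate group at the short end and a long upper tail. At the short end, 66 peaks were 410 to under 450 bp wide, while 26 were 450 to under 600 bp and 44 were 600 to under 750 bp. These 66 had a median -log10 p of 18.7 against 10.2 over all peaks and a median enrichment of 10.99 against 9.31. None of them lay in the window of a listed gene, where 12.9% of all peaks lay. At the long end, 187 peaks were over 5 kb and 29 over 10 kb, the latter with a median enrichment of 11.2.

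The 5 widest intervals lay outside the windows of listed genes. The widest, chr8:126060830-126149149, ran for 88.3 kb with an enrichment of 22.6, between Afg3l1, 35.1 kb away, and Nup133, 283 kb away. RefSeq annotation on GRCm38.p6 places 72 genes between these 2, and 48 of them are ribosomal RNA genes of the n-R5s series, which encode 5S RNA. The next, chr6:114460723-114509240, was 48.5 kb wide with an enrichment of 10.9, between Sec13 and Tamm41. A pair of intervals, 42.6 kb and 37.6 kb wide, lay between Ezh2 and Pdia4 on chromosome 6, where the annotation has the Rn4.5s RNA gene, with enrichments of 29.3 and 34.5. The remaining interval, chr7:67001942-67043095, was 41.2 kb wide with an enrichment of only 5.58. It lay between Herc2 and Klf13, where 209 of 294 annotated genes are small nucleolar RNAs and the imprinted genes Snrpn and Ube3a are found. Where inside those gaps the small RNA genes sit relative to a peak was not determined, since the annotation is of another build.

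Enrichment had a low centre and a long upper tail. The median was 9.31, the range 2.40 to 254.63, and 864 peaks (4.46%) reached 20 while 48 reached 50. Values were coarse: the 19353 peaks took 1129 distinct values, and 7.57 alone occurred 810 times. The authors' -log10 p ran from 5 to 318, and 30 peaks sat at exactly 310. Across peaks, width was nearly unrelated to enrichment (Spearman's rho 0.02) and rose with -log10 p (rho 0.48), while enrichment and -log10 p gave a rho of 0.63. These are descriptions over 19353 peaks that share 1 library pair. In 10 classes of equal size by -log10 p, from the highest to the lowest, median width fell from 2337 to 1347 bp and median enrichment from 16.4 to 7.44.

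Histone genes and small nuclear RNA genes lay around most of the strongest peaks. Histone genes encode the proteins that package DNA, and many of them, though not all, are transcribed mainly in S phase. Many small nuclear RNAs, though again not all, serve in splicing. Of the 48 peaks with an enrichment of at least 50, 8 were within 5 kb of a listed histone gene and 25 more lay between listed genes that the annotation separates by 1 or more histone genes, together 33 (68.8%). Another 8 lay between listed genes with 5 or more small nuclear RNA genes between them. The other 7 were 4 peaks within 5 kb of other listed genes and 3 with neither. By chromosome, 29 of the 48 were on chromosome 13, 10 on chromosome 11 and 5 on chromosome 3.

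The same content was uncommon around peaks in general. Among the 36 peaks of enrichment 50 or more that lay outside gene windows, 69.4% (53.1 to 82.0) had a histone gene between their flanking listed genes, against 2.48% (2.25 to 2.73) of the 16418 outside peaks with flanks on both sides. At an enrichment of 20 to under 50 the share was 0.911%. For a different property, 10 or more transfer, small nuclear, ribosomal or small nucleolar RNA genes, the shares were 41.7%, 4.40% and 3.10%. These are in the same order of strongest, all and intermediate peaks. Flanking genes stood closer around the strongest peaks, a median of 645 kb apart against 2331 kb, so their gaps were the shorter ones. These gaps still held more annotated genes, a median of 37 against 29 around all outside peaks and 15 at an enrichment of 20 to under 50. Several of these peaks share 1 gap, so they are not independent places.

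The strongest peak of all, chr3:96040438-96045431, had an enrichment of 254.63 and was 5.0 kb wide. It lay between Bola1 and Txnip, where the annotation has 10 histone genes (among them H2ac21, H3c15 and H4c14), 25 transfer RNA genes and 8 small nuclear RNA genes (among them Rnu1b1 and Rnu1b2, U1 genes). On chromosome 13 the peak at chr13:21840989-21842972 had an enrichment of 185.19, between Zkscan3 and H4c9, and that at chr13:23851660-23854842 had 172.79, beyond H2bc4. On chromosome 11, 4 peaks from chr11:87255518 to 87285998 had enrichments of 83.26 to 162.04. They lay between Trim37 and Mtmr4, where the annotation has Rnu1a1 and Rnu3b1 among 8 genes typed as small nuclear RNA. A further 3 peaks, from chr11:101502004 to 101520842, had enrichments of 86.81 to 101.43 between Nbr1 and Dhx8, where 5 small nuclear RNA genes include Rnu2-10, a U2 gene. Protein-coding genes other than histones reached lower values: Jund, a subunit of the AP-1 transcription factor, had 60.88, the RNA helicase gene Ddx5 57.04, the translation initiation gene Eif1 51.26, and Alyref and Anapc11 shared a peak of 50.43.

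Every histone gene in the expression table had a peak. All 11 did (a group chosen after the strongest peaks were seen), against 46.4% of all listed genes with any peak in the same window. For 10 of them the enrichment was at least 20. That value was reached by 4.46% of all peaks, 15.5% of peaks at first coding exons and 11.5% at other listed exons. These are shares of peaks and not of genes, so they are no background for the 10. The share of all listed genes with such a peak was not computed. The core histone genes of the chromosome 13 cluster had the highest values: H4c9 170.31, H2bc4 157.08, H4c4 148.81, H2ac10 120.35 and H2ac8 118.59, with the linker histone gene H1f4 at 141.37. Each value is the strongest peak within 5 kb, which need not be the one over the gene. Over the listed exon start the peak had 157.44 at H4c9 and 114.09 at H4c4. Genes outside that cluster were lower, H2aw at 45.47, H2ax at 40.37, H3f3b at 39.68, H3f3a at 28.94 and H2az2 at 12.40. Levels of these histone genes spanned 2.46 for H1f4 to 559 for H2ac8, so a low coverage signal went with peaks as strong as those of well covered histone genes.

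**Figure D2:**
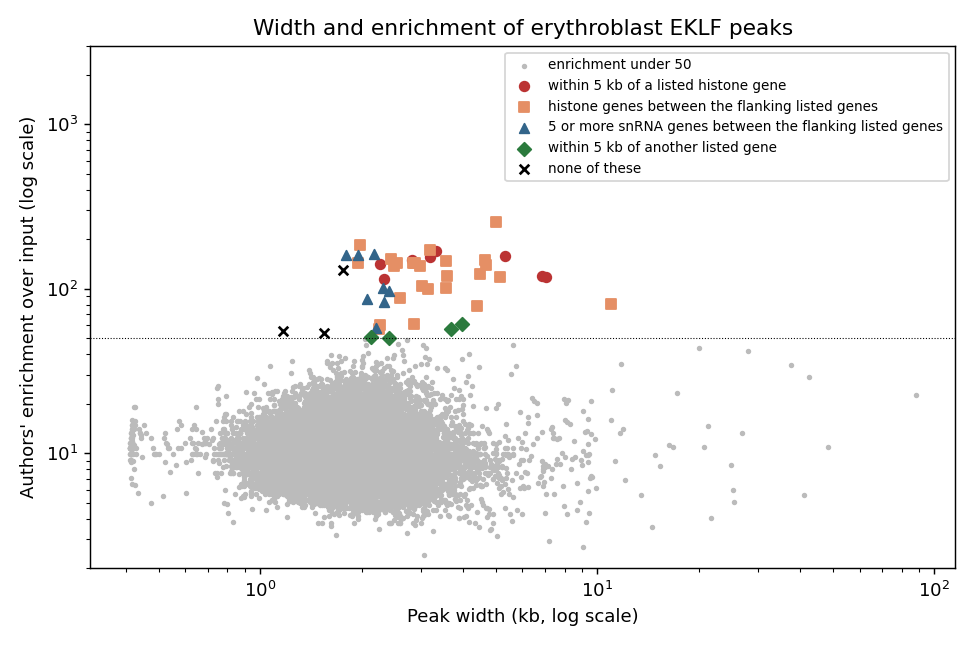
Width in kb against the authors' enrichment over input for each of the 19353 erythroblast peaks, both on log scales, with the 48 peaks of enrichment 50 or more marked by what lies near them. Peaks at or between histone genes (circles and squares) and in gaps with small nuclear RNA genes (triangles) make up 41 of the points above the dotted line at 50, while the widest intervals lie below it.

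Runs of close peaks were uncommon. With gaps of at most 10 kb joining peaks, 14622 peaks (75.6%) stood alone, 1837 pairs formed, and 309 clusters of 3 or more held 1057 peaks (5.46%). Clusters had a median length of 16.1 kb, and their peaks were of ordinary strength, with a median enrichment of 9.09 against 9.35 for all others. A listed gene lay within 5 kb of 98 clusters (31.7%), against 12.6% of single peaks and pairs, which are shorter and so reach fewer genes.

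The largest clusters were of different kinds. The cluster with most peaks, 16 over 53.2 kb at chr4:88400078-88453315, had enrichments of 9.73 to 24.39. It lay 34.0 kb from Klhl9 and far from the next listed gene, Plaa, with interferon genes such as Ifna4 and Ifne in the annotated gap. The cluster of 11 peaks at chr14:70004594-70090860 lay between Entpd4 and R3hcc1, where the annotation has Entpd4b and Loxl2. The cluster of 9 at chr10:79593376-79631685 took in Atp5d and Midn and began 0.726 kb from Stk11, with enrichments of 4.06 to 18.38. The cluster of 8 at chr13:23621936-23678540 held the histone genes H2ac10, H2ac8 and H4c4 and had enrichments of 61.4 to 148.81. A cluster of 7 at chr8:87489315-87515532 covered Rnaseh2a, Prdx2 and Junb, another at chr11:68901035-68938166 covered Vamp2, and the last at chr4:117501786-117545707 lay between Dmap1 and Atp6v0b. A cluster of 6 at chr13:21840989-21880530 lay between Zkscan3 and H4c9 and reached 185.19, so both of these chromosome 13 clusters combined close spacing with strong peaks. The cluster at chr6:114439690-114588003, also of 6, was the longest at 148 kb, and it contains the second widest interval.

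In the expression table, 2419 of 5214 genes (46.4%, 45.0 to 47.8) had a peak between their outermost listed exon starts or within 5 kb of them. Most had a single one: 1994 genes had 1 peak, 379 had 2 and 46 (0.882%) had 3 or more. Genes with a wide span had more room for peaks. The share with 3 or more was 0.382% for genes with a single listed exon start and 3.25% for spans over 50 kb, while the share with any peak was 31.4% for a single start and 49.3 to 54.9% in all longer classes. Together these windows held 2504 peaks, 12.9% of the list, and 361 of them lay in windows of 2 or more genes.

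The genes with most peaks included several of red cell function. Zfpm1, which encodes the GATA1 partner FOG1, had 6 peaks across a span of 53.0 kb, with enrichments of 9.73, 6.49, 14.38, 6.31, 7.57 and 5.30 in genome order, so none reached 20. Nprl3, whose introns hold enhancers of the alpha-globin genes, had 5, with 6.61, 6.61, 24.09, 10.75 and 20.44. Its strongest, chr11:32159291-32160926, lay upstream of Hba-a1. Slc2a1, the glucose transporter GLUT1, had 4, of which the last, chr4:118800319-118812086, ran for 11.8 kb with an enrichment of 35.01.

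Among the other genes with 4 peaks, some had sites of unequal strength. Abcb10, a mitochondrial transporter of heme-forming cells, had 4 peaks with 20.82 at both ends and 7.44 and 9.92 between. Rbm38, an RNA-binding protein of late erythroid splicing, had 26.68 at the first coding exon and 8.60 to 9.92 at the other 3. Prdx2, a peroxiredoxin abundant in red cells, had 21.46 at its strongest and 7.44 to 11.49 at the rest. Atp5d, an ATP synthase subunit, had 16.74 and 14.28 beside 6.94 and 6.31. Tcf3, which encodes E2A proteins, had 4 peaks of 6.94 to 9.92, and Gtpbp1 and Ehbp1l1 reached 12.40 and 14.06.

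Among listed exons of forward-strand genes, first coding exons most often had a peak nearby, and the share fell along the gene. On the forward strand, where exon 1 in genome order is the first coding exon, 73.3% of first exons had a peak within 1 kb, then 29.1% (26.5 to 31.9) at exon 2, 15.5% at exon 3, 9.53% at exon 4 and 5.28% at exon 5, down to 1.05% (0.773 to 1.42) from exon 11 on. On the reverse strand, exon 1 in genome order is the last coding exon, and the share stayed between 8.11% and 12.9% at every number. Neighbouring exons can share a peak, so these shares are not independent along a gene. Among the 472 first exons with a peak, the peak midpoint lay at a median of -43.5 bp from the coding exon start, with quartiles of -224 and 118 bp, negative values being upstream. In 441 of them (93.4%) it lay within 500 bp, and in 56.8% it lay upstream. The distance to the transcription start was not measured, since the table gives coding exons only.

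**Figure D3:**
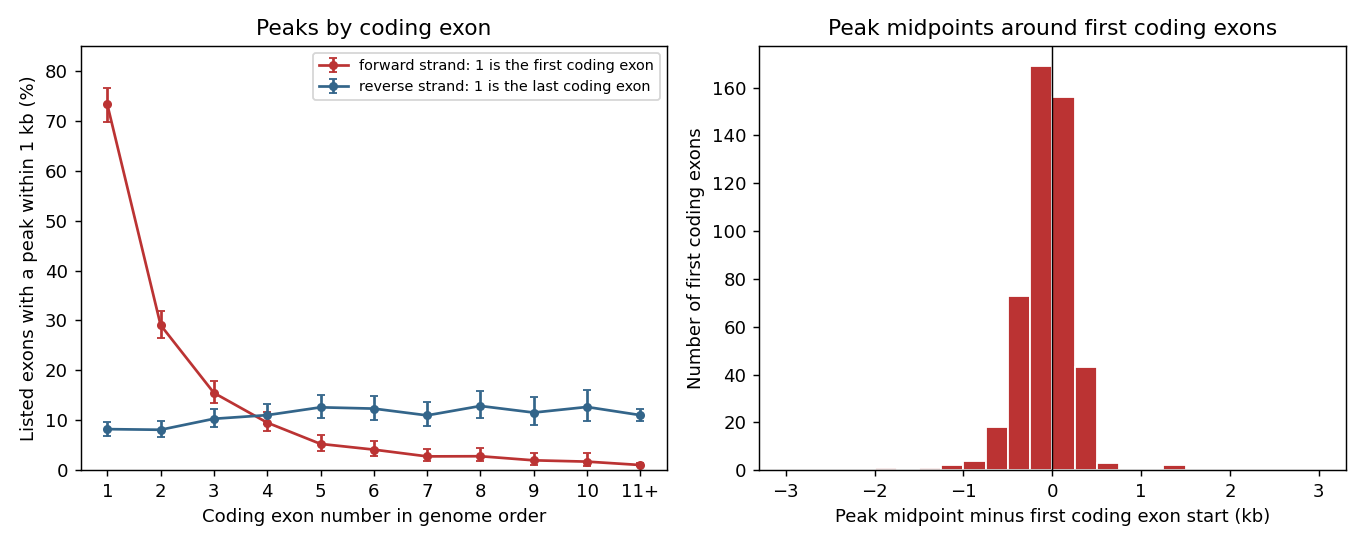
Left, percent of listed coding exons with an erythroblast peak within 1 kb by exon number in genome order, for forward-strand and reverse-strand genes, with Wilson 95% intervals. Right, number of forward-strand first coding exons by distance in kb from the exon start to the peak midpoint, in bins of 0.25 kb. The forward share drops from 73.3% at exon 1 to 1.05% at exon 11 and later ones, and midpoints gather within 0.5 kb of the start.

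Most of the list lay far from the listed exons. Within 1 kb of any listed coding exon start were 1531 peaks (7.91%, 7.54 to 8.30), and 13592 (70.2%) were over 50 kb from all of them. The table covers only exons above its minimum in both stages, so a peak far from a listed exon can still be near a gene. Stronger peaks were nearer: in 10 classes of equal size by enrichment, 18.9% (17.2 to 20.7) of the strongest class lay within 1 kb, against 4.13% (3.33 to 5.11) of the weakest. By place, median enrichment was 12.6 at first coding exons (472 peaks), 11.4 at other listed exons (1059), 10.8 elsewhere in a gene window (977), 10.4 outside but within 50 kb (3265) and 9.08 outside and beyond (13580, since 12 of the 13592 lie in the window of a gene with a wide span). Median width hardly differed, from 1707 to 1844 bp over the same 5 places. The share with an enrichment of at least 20 was 15.5% at first coding exons and 2.48% beyond 50 kb.

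Peaks were spread far more evenly over chromosomes than listed genes. Over 19 autosomes and X, density ran from 6.72 to 8.61 peaks per Mb, a 1.28-fold range, while listed genes ran from 0.752 to 4.01 per Mb, a 5.34-fold range. The X chromosome had an ordinary 7.93 peaks per Mb, 1298 in all, but only 26 of them (2.0%) lay in the window of a listed gene, against 13.7% on autosomes. Of its 123 listed genes 24 (19.5%, at most 27.4%) had a peak, against 47.0% (45.7 to 48.4) of 5091 autosomal genes, where single autosomes ran from 36.0% to 60.9%. The median distance to the nearest peak was 62.8 kb for X genes and 5.96 kb for autosomal genes. Their median exon level was alike, 3.59 and 3.61, and their median number of listed exons was 2 and 3. Strong peaks were few on X: 13 (1.0%) had an enrichment of at least 20, against 4.72% on autosomes. The sex of the embryos is not given, and its part in these values was not tested.

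Genes with a higher erythroblast level more often had a peak. In 10 classes of genes of equal size by summed level, the share with a peak went from 26.9% in the lowest to 71.3% in the highest, a difference of 44.4 points (38.7 to 49.6, counting error only). Genes with more listed exons have both a higher sum and a wider window, and the median level of a gene's exons gave a smaller difference, from 36.5% to 62.6%, of 26.2 points (20.2 to 31.9). Within classes of genes with the same range of exon numbers, the share was higher in the highest than in the lowest of 4 classes of exon level: 27.8 to 39.7% with 1 listed exon, 43.3 to 59.4% with 2 to 3, 43.3 to 64.2% with 4 to 7, and 48.1 to 75.1% with 8 or more. At first coding exons alone, shares in 5 classes of level, from the lowest up, were 59.4, 68.2, 80.6, 79.1 and 79.1%, so the top 3 classes were alike.

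**Figure D4:**
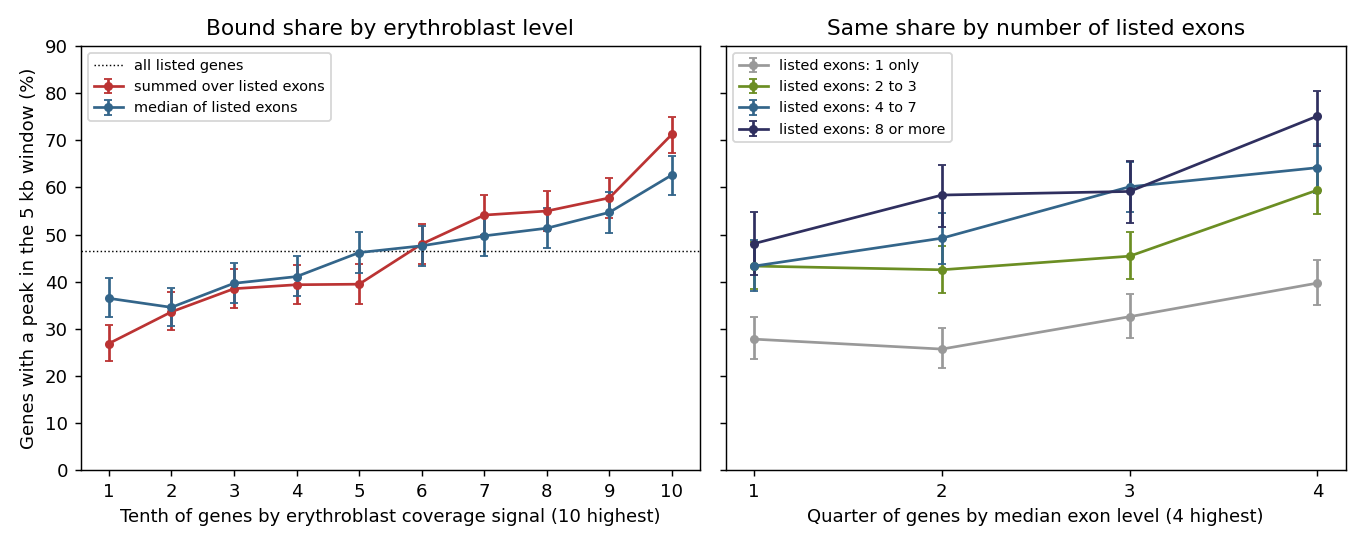
Left, percent of listed genes with an erythroblast peak in the 5 kb window, in 10 classes of equal size by the erythroblast coverage signal summed over listed exons or as the median of listed exons, with the share of all listed genes (46.4%) dotted. Right, the same share in 4 classes of median exon level, separately by number of listed exons. Bars are Wilson 95% intervals, and in each line the point at 4 is higher than the point at 1.

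How strong a gene's peak was went with its level only loosely. Bound genes had a median summed level of 20.1 against 8.95 for those without a peak, and by peak number the medians were 8.95 for none, 18.4 for 1, 25.9 for 2 and 43.5 for 3 or more. The median of exon medians followed the same order, 3.16, 4.14, 4.58 and 7.18. Among the 2419 bound genes, Spearman's rho between the highest enrichment and the level was 0.17 for the sum and 0.11 for the exon median. Over all 5214 genes, rho between having a peak and the level was 0.25 and 0.16. These correlations are across genes of 1 peak list and 1 column, and genes are not replicates.

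Of the 100 best covered genes 83 (74.5 to 89.1%) had a peak, beside 46.4% of all listed genes and 71.3% of the 522 best covered. The ubiquitin gene Ubb, at a level of 4033, had a peak of 17.41. The joined alpha-globin item Hba-a1 and Hba-a2, at 4043, had 1 peak over each gene copy. The translation factor gene Eef1a1 (3700) had a peak of 15.77, Sptb, which encodes beta-spectrin of the membrane skeleton (2756), had 2 with a best of 14.88, and the glycolysis gene Aldoa (2247) had 2 with a best of 16.53. The poly(A)-binding protein gene Pabpc1 (1809) had a peak of 23.15 and the proliferation marker gene Mki67 (1777) one of 16.40.

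Some of the best covered genes had no peak in their window. Eef2, the translation elongation factor, ranked 4 by level at 3869, with its nearest peak 9.18 kb away. Gata1, the central transcription factor of red cell development, ranked 6 at 2845, with its nearest peak 59.9 kb away on the X chromosome. The glycolysis genes Pkm (1466) and Ldha (900) had their nearest peaks 7.71 and 53.5 kb away, and the ribosome gene Rack1 (1336) 10.1 kb away. For Eef2, Pkm and Ldha the first coding exon is not among the listed ones. The windows of Eef2 and Pkm may therefore miss a peak at the start of the gene, while no peak lay within 53 kb of the listed Ldha exon starts. For Rack1 it is listed and had no peak within 1 kb.

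Both listed globin items carried wide, strong peaks. Globins are the protein chains of hemoglobin. At the alpha-globin genes the peaks chr11:32182487-32188033 and chr11:32195322-32200936 were 5547 and 5615 bp wide with enrichments of 30.28 and 45.42. At the beta-globin item, which joins Hbb-b2 and Hbb-bt, the peak was the 6481 bp interval given above. The alpha copies are nearly identical, as are the adult beta copies, so reads may have been shared between copies, both for peaks and for coverage. The widths of these 3 peaks were all above 4954 bp, a width that 1 in 100 peaks of the list exceeded.

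Heme synthesis and iron genes had a peak in 11 of 19 cases (57.9%, 36.3 to 76.9), beside 46.4% of all listed genes. Tfrc, the transferrin receptor that brings iron into the cell, had 26.49 at chr16:32608417-32609727, 4.9 kb before its first listed exon start. The mitochondrial carrier genes Slc25a39, Slc25a38 and Slc25a37, of which the last imports iron, had 25.74, 21.50 and 17.03. The heme enzyme genes Cpox and Urod had 18.92 and 9.87, and the ferritin genes Fth1 and Ftl1 23.98 and 9.67. Among the 8 without a peak were the heme enzyme genes Alad, at a level of 642 with its nearest peak 10.2 kb away, and Ppox, at 135.

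Membrane and skeleton genes had a peak in 8 of 13 (61.5%, 35.5 to 82.3). Beside Slc2a1 and Sptb, the blood group gene Ermap had 23.15, the membrane skeleton genes Epb41, whose product ties spectrin to the membrane, 19.40 and Ank1, for ankyrin, 12.40, and the surface protein gene Cd24a 18.38. Among those without one were the adducin genes Add1 and Add2, with their nearest peaks 5.81 and 123 kb away.

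Transcription factor genes of the erythroid program had a peak in 14 of 24 (58.3%, 38.8 to 75.5). Klf1 itself had 2 peaks, 22.71 over its first coding exon at chr8:87425111-87427800 and 9.08 at chr8:87431681-87433353. Nfe2l1, a stress response factor of the NF-E2 family, had 26.46, Sp1, another zinc-finger factor that binds GC-rich sites, 24.80, Lyl1, a relative of Tal1, 22.21, Mafg, a partner of NF-E2, 19.84 and Lmo2, a bridging protein of the GATA1 and TAL1 complex, 18.19. Weaker peaks lay at Foxo3 (13.62), the erythropoietin receptor gene Epor (11.35), Nfe2 (10.72) and Ldb1 (9.08). Tal1, Gfi1b, Klf3 and Bcl11a had none in the window, with the nearest 5.07, 24.9, 9.07 and 243 kb away, so that of Tal1 lay just beyond the window.

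Cell cycle genes had peaks somewhat more often than the whole table, as did every other list with at least 9 listed members. Level was not accounted for in these shares. Of the regulators of the G1 phase 11 of 16 (68.8%, 44.4 to 85.8) had one: E2f2 with 3 peaks, Cdk2 with a best of 22.32, the inhibitor genes Cdkn2d and Cdkn2c with 21.50 and 17.36, E2f1 with 21.50 and E2f8 with 23.98. Of genes of S phase and mitosis 20 of 29 (69.0%, 50.8 to 82.7) had one, led by cyclin A (Ccna2, 27.15), the replication clamp Pcna (17.36), Mcm2 (16.53), Mki67 (16.40) and cyclin E (Ccne1, 15.71). Cdk4 (level 103), Mcm3 (436) and Top2a (289) had none. The interval of the S phase and mitosis list lay above 46.4%, and that of the G1 list included it.

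Genes of antioxidant defence and glycolysis had a peak in 16 of 22 (72.7%, 51.8 to 86.8). The 5 strongest were at antioxidant genes: Gpx1 (34.72), Gclm (29.76) and Gclc (22.32), the 2 subunits of the enzyme that begins glutathione synthesis, Sod1 (28.94) and Prdx2 (21.46). Glrx5, which serves iron-sulfur cluster assembly, had 19.84. Other antioxidant genes had weaker peaks, Cat with 9.84, Sod2 with 7.44 and Blvrb with 7.03, and Txnrd1 and G6pdx had none. Of the glycolysis genes Pfkl had 19.01, Aldoa 16.53, Gpi1 15.14 and Tpi1 9.66, while Hk1, Ldha and Pkm had none.

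Genes of autophagy and maturation had a peak in 9 of 15 (60.0%), among them Fbxo7 (23.98), the ubiquitin enzyme gene Ube2o (21.68), Atg4d (18.19), the survival gene Bcl2l1 (15.14) and Bnip3l (12.40), which serves removal of mitochondria. Genes of ribosome biogenesis had one in 10 of 17 (58.8%), with Bop1 at 18.17, Ubtf at 16.71 and the fibrillarin gene Fbl at 16.53. Genes often named as EKLF targets had one in 16 of 22 (72.7%, 51.8 to 86.8), a list that overlaps those above. Housekeeping genes had one in 6 of 9 (66.7%, 35.4 to 87.9), Actb (26.49) and Sdha (22.32) among them, so their share was near those of the erythroid lists. Runx1, the 1 listed gene of the stem and progenitor markers, had a peak of 9.67, and the megakaryocyte gene Gp1ba had none.

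**Figure D5:**
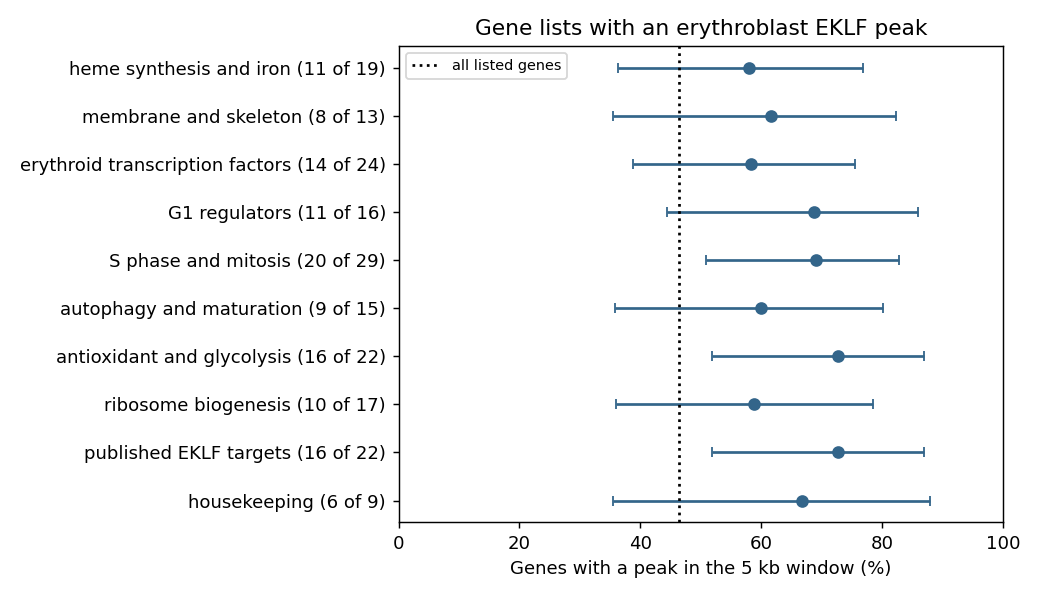
Percent of listed genes with an erythroblast peak in the 5 kb window for each gene list with at least 9 listed members, with Wilson 95% intervals and counts, and the 46.4% of all listed genes as a dotted line. All 10 points lie to the right of the line, and the intervals of 3 lists (S phase and mitosis, antioxidant and glycolysis, published EKLF targets) lie wholly above it.

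Levels differed between the lists, and shares differ with level. Median summed levels were 233 for antioxidant and glycolysis, 206 for membrane and skeleton, 148 for heme synthesis and iron, 121 for the published EKLF targets and 114 for S phase and mitosis. In the class of genes with levels of 94.1 or more, which holds these medians, 71.3% had a peak, so the lists' 57.9 to 72.7% are near or below it. Medians were 74.2 for housekeeping and 57.5 for erythroid transcription factors, where the class of 46.6 to 93.8 had 57.8% with a peak. They were 27.3 for the regulators of G1, 24.4 for autophagy and maturation and 19.9 for ribosome biogenesis, where the class of 19.1 to 28.8 had 54.1% (49.8 to 58.4). The part of level in the lists' shares was not tested.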

How the data were processed

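The authors deposited 1 pooled peak list per stage (mm9 per the submitters' processing notes), with input as background per the labels; no aligner or peak caller was named. The lists have no header: from their values, deposited column 7 was read as a fold enrichment (ratio) and column 8 as -log10 p. The authors' deposited exon table carries RPKM in its name, yet 100% of erythroblast values were whole multiples of 1 step (within 0.01), so it was used as a coverage signal not divided by length. Whether the erythroblast column pools both RNA libraries is unknown, so it has no SD or n.

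Exon names were matched to symbols through RefSeq (6772 of 6853 transcripts), and the exons of 1 transcript per gene were summed. Windows were 1 kb around exon starts and 5 kb around genes. Clusters were 3 or more peaks with gaps of at most 10 kb. Coordinates are 1-based. Intervals on shares are Wilson 95% intervals for counting error alone, and without replicates no p-value was computed. Genes between flanking genes were taken from the gene order of GRCm38.p6, with no coordinates carried between builds. The overlap search was checked on simulated intervals. Python 3.11.15 was used with pandas 2.3.3.

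Named were the globins, per list up to 6 members with the strongest peaks and 2 best covered without one, the genes with most peaks, the best covered genes with and without a peak, and the widest, strongest and most clustered peaks; other names were chosen after their values were seen. Members and lists were chosen with earlier results of these data known. Some genes that this rule names are not reported here.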

Additional observations from a re-analysis of the deposited data

How the results depend on the processing

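Keeping the 9676 peaks with the highest -log10 p gave a median width of 2008 bp, a median gap of 154.9 kb, 149 peaks in clusters, 9.86% of peaks within 1 kb of a listed exon start, 49.8% of first coding exons and 29.3% of genes with a peak, 5 genes with 3 or more peaks, and a difference of 37.9 points between the highest and lowest of 10 classes of level. Keeping the 8077 peaks with an enrichment of at least 10 gave 1791 bp, 169.4 kb, 12.2% of peaks near exon starts, 50.8% of first coding exons and 30.8% of genes. Gaps taken from midpoint to midpoint had a median of 76.4 kb. Joining peaks over gaps of at most 5 or 20 kb put 504 or 2322 peaks in clusters. The share of peaks near exon starts was 6.26% when the peak had to cover the start, 6.28% by midpoint, and 12.6% within 5 kb. With gene windows of 0, 20 and 50 kb, 24.8%, 72.3% and 88.1% of genes had a peak, and with 0 and 20 kb 13 and 522 genes had 3 or more.

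The difference by level was 29.2 points with the mean exon level, 26.2 with the median, 36.0 with the highest exon, 19.1 for peaks at first coding exons, 29.4 with a 20 kb window, 27.8 for genes with at least 3 listed exons and 34.7 for levels of at least 5; it was positive in each. In promoters of genes with a peak at the first coding exon, CCACACCC was in 3.26% and AGATAA in 5.35%. Of the counts for single gene lists, 18 moved by over 1.5 times or from or to 0, and 47 stayed within 1.5 times, which is not the same as unchanged. Of the values for the whole list, 33 moved beyond their interval (counts: by over 1.5 times) and 5 stayed within it. No paired analysis was possible because the peak list is 1 pooled list that carries no replicate numbers, and no result comes from a test. Leaving out a replicate was not possible for the same reason. Depth is unknown for the peaks, and the expression table's minimum in both stages limits which genes could be counted.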
